A study of Mus musculus with 12 samples.

Results

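A set of 7 keratin genes of the mouse cornea was examined across healthy, injured and treated tissue: the basal keratins Krt5, Krt14 and Krt15 and the stress keratins of wounded epithelium Krt6a, Krt6b, Krt16 and Krt17. The rows were taken by gene symbol from a table of 19702 genes, which held 53 keratin (Krt) genes in all. All 7 members passed the filter on low counts that left 16124 genes for testing. The study measured RNA of whole mouse corneas in 12 libraries, 3 for each of 4 groups, and each library pooled 6 corneas of 3 mice. Control corneas were neither injured nor treated. Vehicle, UCS and UCPRP corneas all received benzalkonium chloride (BAK), a detergent used as an eye-drop preservative that damages the ocular surface, as 5 µl of a 0.2% solution per eye each day for 14 days. Vehicle corneas were injured and had no treatment according to the labels. UCS and UCPRP corneas were given 5 µl of a 20% preparation 3 times daily for 10 days. The series title describes both preparations only as biologics derived from cord blood, and the labels do not expand their abbreviations. Neither the labels nor the series text gives strain, sex, age, time of harvest or the order of BAK and treatment days. A lower value in a treated group therefore cannot tell weaker injury from faster healing.

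Keratins are the intermediate filament proteins of epithelia, and each filament is built from pairs of a type I and a type II chain. Krt5 (type II) and Krt14 (type I) form the classic pair of basal cells, and Krt15 is a type I keratin of basal cells that in the eye is known from limbal and conjunctival epithelium. Krt6a and Krt6b (type II) with Krt16 and Krt17 (type I) are known for their induction at wound edges and in inflamed epidermis, while some of them are constitutive in other lining epithelia. The differentiated corneal epithelium is marked by a type I keratin of its own, Krt12, and the conjunctiva, the mucous membrane that borders the cornea, by Krt4, Krt13 and Krt19.

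All 7 genes lie on minus strands of GRCm38. The type II genes lie together on chromosome 15, Krt6b (Entrez 16688) at chr15:101676023-101680287, Krt6a (Entrez 16687) at chr15:101689910-101694307 and Krt5 (Entrez 110308) at chr15:101707070-101712898, each with 9 exons. The type I genes lie on chromosome 11, each with 8 exons, Krt15 (Entrez 16665) at chr11:100131758-100135928, Krt14 (Entrez 16664) at chr11:100203162-100207548, Krt16 (Entrez 16666) at chr11:100246091-100248902 and Krt17 (Entrez 16667) at chr11:100256217-100261029. Krt6a and Krt6b are close copies, with 97.8% identity and 37 mismatches over 1659 aligned coding bases and one identical run of 280 bases. Krt14 matched Krt16 at 86.5% and Krt17 at 84.1% of aligned coding bases, and Krt5 matched Krt6a at 81.9%. The likeness matters here because short reads from a shared stretch cannot be given to 1 gene with certainty. The 90 coding bases that set Krt6a and Krt6b apart most within 1 exon are printed below, 5′ to 3′ on the coding strand from exon 4, with the 12 positions that differ in capitals (Krt6a chr15:101692484-101692573, Krt6b chr15:101678303-101678392).
Krt6a: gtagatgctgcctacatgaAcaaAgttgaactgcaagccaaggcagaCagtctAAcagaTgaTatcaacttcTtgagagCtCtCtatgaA
Krt6b: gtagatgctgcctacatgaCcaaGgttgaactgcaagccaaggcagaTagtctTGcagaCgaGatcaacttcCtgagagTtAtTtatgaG

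The opposite case is the stretch of 90 coding bases in which Krt14, Krt16 and Krt17 differ least. It comes from exon 6 of each gene (Krt14 chr11:100204131-100204220, Krt16 chr11:100246633-100246722, Krt17 chr11:100257456-100257545) and holds 4 positions at which the genes are not all the same, again in capitals.
Krt14: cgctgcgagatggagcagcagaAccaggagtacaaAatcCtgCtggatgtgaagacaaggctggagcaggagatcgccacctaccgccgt
Krt16: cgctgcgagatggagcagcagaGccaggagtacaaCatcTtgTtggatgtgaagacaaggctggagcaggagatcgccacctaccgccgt
Krt17: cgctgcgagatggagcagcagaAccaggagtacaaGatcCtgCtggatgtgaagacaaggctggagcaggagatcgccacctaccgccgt

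The labels name no read length and no counting tool, so the share of each transcript that another gene repeats exactly was counted for several lengths. Of all 100-base windows, 34.0% of those in Krt6a, 30.6% in Krt6b, 24.3% in Krt16, 2.88% in Krt14 and 2.38% in Krt5 were present in another gene's transcript, and none of those in Krt15 and Krt17 were. The shares depend on the length. For 50-base windows they were 49.5% in Krt6a, 50.1% in Krt6b, 37.6% in Krt16 and 14.4% in Krt14. Krt5 had 8.52%, Krt17 3.99% and Krt15 0.666% at that length. The windows of Krt6a and Krt6b were shared mainly with each other, and those of Krt16 with the gene model Gm11597 and with Krt14. The deposited values are estimated counts that need not be whole. The Krt5, Krt14, Krt6a, Krt6b, Krt16 and Krt17 values were fractional in all 12 libraries, and the Krt15 values in 11 of 12. How counts were divided between Krt6a and Krt6b, and how Krt16 reads were assigned, is therefore uncertain. A sum of the near-identical pair Krt6a and Krt6b is given with the results, and a sum with Gm11597 was not made.

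Each library held between 18.55 M and 20.44 M estimated counts, and levels are given as CPM, counts per 1 M counts of the scaled library size. Control replicate 2 stood apart in keratin content: its keratin genes summed to 83860 CPM against at most 50870 CPM in any other library. The libraries also divided by a circadian gene, Dbp, which ran from 139 to 280 CPM in 8 libraries and from 14.7 to 25.9 CPM in the other 4 (UCS replicate 1, Vehicle replicates 1 and 2, and Control replicate 3). Retina and lens genes were present in all groups, at 3030 to 16600 CPM and 211 to 31100 CPM summed over their marker lists. The labelled tissue was borne out in Control, where Krt12 stood at 22560 ± 9060 CPM (SD, n = 3).

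In healthy corneas the leading member was Krt5. Set per kilobase of transcript, so that genes of different length can be compared, the Control order of levels was Krt5 (7210 ± 2710 CPM per kb, SD, n = 3), Krt6b (2548 ± 827), Krt6a (2350 ± 760), Krt15 (1761 ± 753), Krt14 (436.1 ± 125), Krt17 (53.36 ± 30.8) and Krt16 (45.62 ± 19.0). The libraries of Krt5 and Krt6b did not overlap in that order, nor those of Krt15 and Krt14 or of Krt14 and Krt17, while the other neighbours were within each other's range. Krt6a and Krt6b, grouped here as stress keratins, were thus abundant before any injury. After BAK without treatment the upper part of the order closed up, with Krt15 (3030 ± 739 CPM per kb), Krt5 (3002 ± 268), Krt14 (2800 ± 638), Krt6b (2453 ± 486) and Krt6a (2157 ± 323) overlapping from neighbour to neighbour, and Krt17 (486.5 ± 123) and Krt16 (271.6 ± 180) below them.

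**Figure D1:**
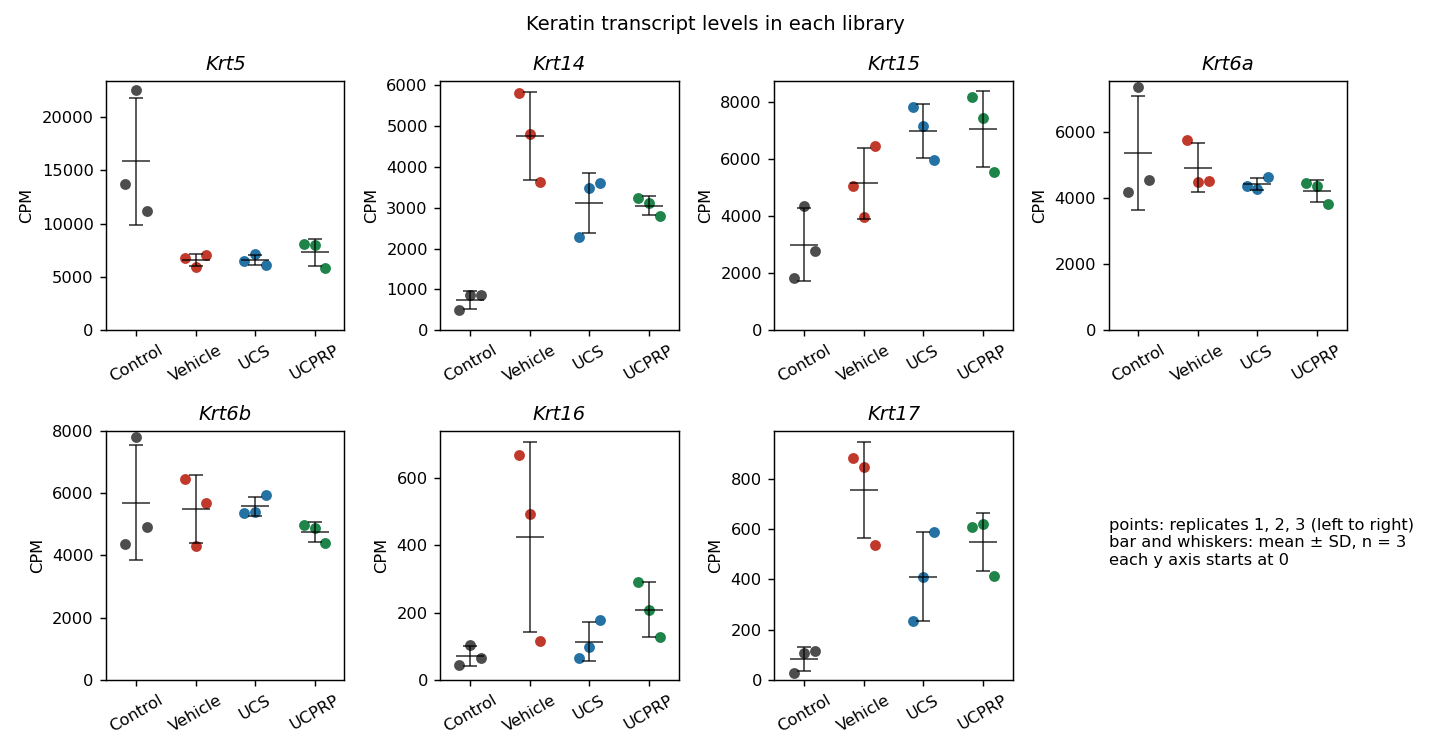
CPM of the 7 keratins (1 panel each, axis from 0) in the 3 libraries of Control, Vehicle, UCS and UCPRP, as points in replicate order with the mean and SD as bar and whiskers. All Control points of Krt5 lie above, and all those of Krt14 and Krt17 below, every point of the injured groups, while Krt6a and Krt6b stay within one range apart from Control replicate 2.

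The first comparison asked what BAK injury did to these keratins. The basal pair moved in opposite directions: Krt14 rose, with the stress keratins Krt16 and Krt17, while Krt5 fell, and Krt15, Krt6a and Krt6b did not pass the test. That was 3 members higher and 1 lower, where 16.5% of all genes tested passed (9.58% higher and 6.92% lower). The libraries of Vehicle and Control did not overlap for 4 of the 7, as for 30.6% of all genes tested. The median log2 fold change of the 7 was 0.78, against -0.0013 over all genes tested.

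Krt14, the basal type I chain, measured 495.5, 858.8 and 867.1 CPM in the Control libraries and 5808, 4810 and 3642 CPM in the Vehicle libraries. Every Vehicle library was several times above every Control library. The difference was 6.42-fold (log2 2.68, SE 0.28, adjusted p = 0.000156, edgeR quasi-likelihood test with Benjamini-Hochberg adjustment, as for every adjusted p from here on). Its type II partner Krt5 measured 13750, 22560 and 11210 CPM in Control and 6735, 5949 and 7101 CPM in Vehicle, so all Vehicle libraries were below the lowest Control library. Krt5 fell by 1.26 on the log2 scale (SE 0.26, adjusted p = 0.00666). Fitted to the Vehicle and Control libraries alone, the Krt5 difference was -1.22 and narrowly missed the threshold (adjusted p = 0.0537). In bulk tissue, fewer cells of a type and less RNA per cell cannot be told apart.

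Krt15, the third basal keratin, measured 1832, 4367 and 2782 CPM in Control and 5040, 3953 and 6459 CPM in Vehicle. Vehicle replicate 2 was below Control replicate 2, so the groups overlapped. The log2 difference was 0.78 (SE 0.31, 95% interval 0.07 to 1.5, adjusted p = 0.118). Without Control replicate 2, the library rich in keratin counts, it was 1.15 (adjusted p = 0.0242), and DESeq2 gave an adjusted p of 0.0427 with all libraries. With the centred mean log2 CPM of the retina markers as a covariate in edgeR it was 0.85 (adjusted p = 0.0353). Krt15 gained a call in 4 of 16 other settings. Its call thus depended on that library, on the test and on the covariate used.

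Of the stress keratins, Krt17 had the largest difference of all 7 members. It measured 27.84, 106.1 and 114.3 CPM in Control and 881.3, 847.4 and 534.9 CPM in Vehicle, and the groups were well separated. The difference was 9.12-fold (log2 3.19, SE 0.51, adjusted p = 0.00139). Krt16 measured 44.78, 103.6 and 65.84 CPM in Control and 666.6, 492.8 and 115.9 CPM in Vehicle. The groups did not overlap, but Vehicle replicate 3 was only a little above the highest Control library. The difference was 5.96-fold (log2 2.57, SE 0.61, adjusted p = 0.0132). That call was lost without Control replicate 1 (2.33, adjusted p = 0.0570), Control replicate 3 (2.52, adjusted p = 0.0509) or Vehicle replicate 1 (2.09, adjusted p = 0.0503).

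Both Vehicle libraries with high Krt16 were among the 4 with low Dbp, and Vehicle replicate 3 was among the 8 with high Dbp. Within the high-Dbp libraries the Vehicle to Control difference of Krt16 was 0.64 (adjusted p = 0.709), and within the low-Dbp libraries it was 3.13 (adjusted p = 0.0524). For Krt17 the difference was 3.00 within the high-Dbp (adjusted p = 0.0753) and 2.91 within the low-Dbp libraries (adjusted p = 0.0458). Krt14 differed by 2.42 within the high-Dbp (adjusted p = 0.0205) and 2.61 within the low-Dbp libraries (adjusted p = 0.100), and Krt5 was at -1.36 within the high-Dbp (adjusted p = 0.209) and -0.83 within the low-Dbp libraries (adjusted p = 0.570). These within-split fits have arms of a single library, whose spread is taken from the others. With log2 Dbp minus log2 Arntl, another clock gene, as a covariate over all 12 libraries, Krt16 differed by 2.53 (adjusted p = 0.0561).

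Krt6a and Krt6b, the type II partners of Krt16 and Krt17, had no detected difference. Krt6a measured 4185, 7344 and 4534 CPM in Control and 5762, 4463 and 4516 CPM in Vehicle, a log2 difference of -0.12 (95% interval -0.64 to 0.39, adjusted p = 0.790). Krt6b measured 4364, 7804 and 4915 CPM in Control and 6464, 4315 and 5670 CPM in Vehicle, a log2 difference of -0.05 (95% interval -0.60 to 0.49, adjusted p = 0.919). Ranges of both genes overlapped, with Control replicate 2 the highest library for each. Summing the pair, which sets aside how reads were divided between them, gave -0.09 (SE 0.24, adjusted p = 0.864). Some 50-base windows of both were also shared with Krt5 and with the gene models Gm5478 and Gm5414, which the sum does not cover. The summed row of Krt14, Krt16 and Krt17, which are less alike and of which Krt14 holds most counts, gave 2.73 (SE 0.31, adjusted p = 0.000239).

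The second set of comparisons set UCS and UCPRP corneas against Control. These share their Control libraries with the comparison above, so their values are given side by side and are not independent of it. In each, Krt14, Krt15 and Krt17 rose and Krt5 fell, 4 of 7 members, where 10.9% of all genes tested passed for UCS (6.4% higher and 4.47% lower) and 10.4% for UCPRP (5.3% higher and 5.07% lower). Groups did not overlap for 4 members in UCS (28.9% of all genes tested) and 5 in UCPRP (28.2%). The median log2 fold change of the 7 was 0.67 for UCS and 1.24 for UCPRP, against -0.013 and 0.039 over all genes tested.

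Krt14 measured 2280, 3486 and 3606 CPM in UCS and 3230, 3123 and 2793 CPM in UCPRP, all above every Control library. The differences from Control were 4.22-fold (log2 2.08, SE 0.28, adjusted p = 0.000795) and 4.12-fold (log2 2.04, SE 0.27, adjusted p = 0.000986). Krt5 measured 6535, 7120 and 6108 CPM in UCS and 8053, 8019 and 5820 CPM in UCPRP. These libraries were all below Control, and Krt5 fell by 1.27 in UCS (SE 0.26, adjusted p = 0.00941) and by 1.12 in UCPRP (SE 0.26, adjusted p = 0.0196). The UCPRP call for Krt5 was lost without UCPRP replicate 2 (adjusted p = 0.0551) or replicate 3 (adjusted p = 0.0846). Fitted to the compared groups alone, Krt5 passed in neither, with an adjusted p of 0.0601 in UCS and 0.117 in UCPRP.

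Krt15 measured 7822, 7147 and 5961 CPM in UCS and 8168, 7446 and 5558 CPM in UCPRP. All 6 libraries were above the highest Control library, which was not so for Vehicle. The differences were 2.33-fold (log2 1.22, SE 0.31, adjusted p = 0.0278) in UCS and 2.36-fold (log2 1.24, SE 0.31, adjusted p = 0.0279) in UCPRP. Each of these calls was lost in 7 of 16 other settings, with adjusted p up to 0.0838 and 0.0980. That Krt15 passed here and not in Vehicle does not show a difference from Vehicle, which was tested directly and is given below.

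Krt17 measured 233.2, 408.8 and 588.1 CPM in UCS and 609.5, 618.4 and 413.9 CPM in UCPRP, again without overlap with Control. It was 4.96-fold (log2 2.31, SE 0.49, adjusted p = 0.0106) and 6.61-fold higher (log2 2.73, SE 0.50, adjusted p = 0.00533). Fitted to the UCS and Control libraries alone, the Krt17 call was narrowly lost (adjusted p = 0.0528). Krt16 measured 65.46, 98.10 and 176.4 CPM in UCS and 289.9, 208.2 and 127.6 CPM in UCPRP. The UCS libraries overlapped with Control and the UCPRP libraries did not, and neither difference passed the test (log2 0.67, adjusted p = 0.575 for UCS, and 1.55, 95% interval 0.20 to 2.90, adjusted p = 0.129 for UCPRP). Krt6a (-0.28 in UCS and -0.35 in UCPRP) and Krt6b (-0.03 and -0.26) overlapped with Control in both groups, with adjusted p between 0.388 and 0.974.

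**Figure D2:**
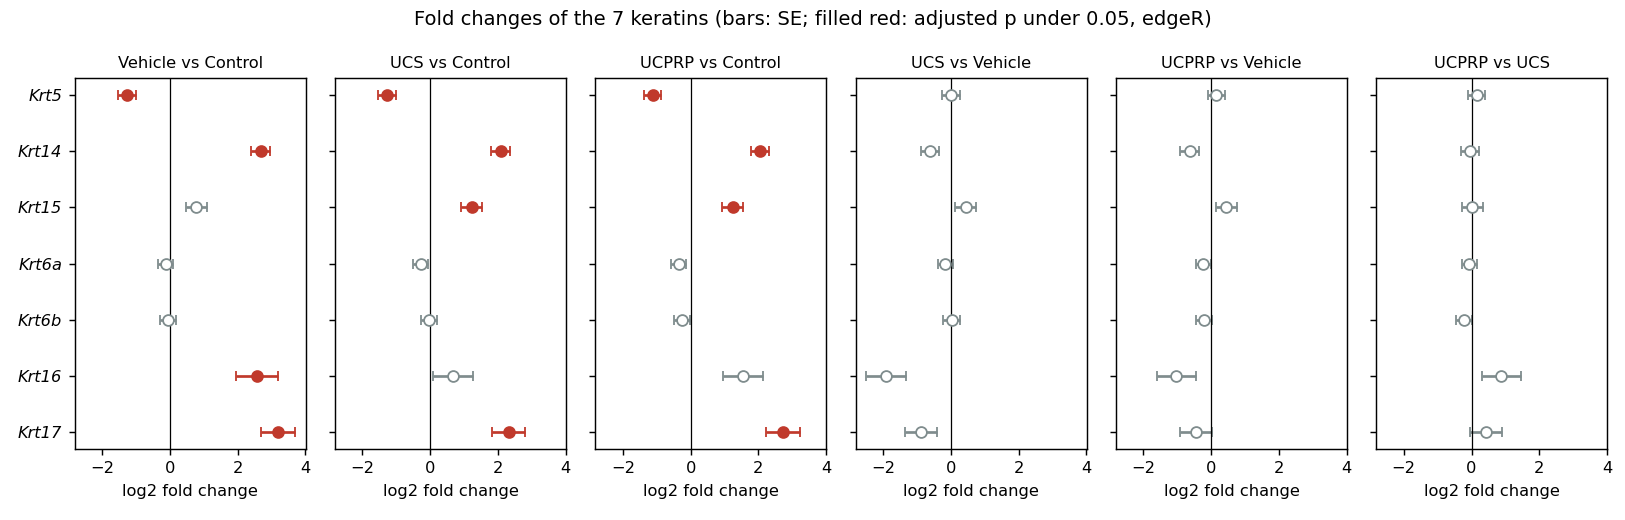
Log2 fold change of each keratin in the 6 pairwise comparisons, with bars of 1 SE on each side; filled points passed an adjusted p of 0.05 (edgeR). The 12 filled points all belong to comparisons with Control, which share the Control libraries, and the bars of Krt16 are the widest.

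The third set asked whether either biologic changed the keratins of injured corneas. No member passed the test between UCS and Vehicle or between UCPRP and Vehicle, and no gene of the 16124 did either (0% of all genes tested) with edgeR. At an unadjusted p under 0.05 there were 782 genes for UCS (4.85%) and 1572 for UCPRP (9.75%). DESeq2 called 14 and 131 genes, none of them a member, and limma-voom called 0 in both. Members at an unadjusted p under 0.05 were Krt14 and Krt16 for UCS and Krt14 for UCPRP.

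Krt14 was lower in every UCS and UCPRP library than in the lowest Vehicle library, 3642 CPM. The intervals, on 8 residual degrees of freedom, are wider than edgeR's test, which adds prior ones, so an interval can hold 0 at an unadjusted p under 0.05. The log2 differences were -0.61 for UCS (95% interval -1.22 to 0.01, adjusted p = 1) and -0.64 for UCPRP (95% interval -1.25 to -0.03, adjusted p = 0.473). Groups did not overlap for 9.46% of all genes tested in the first comparison and for 13.8% in the second. Krt16 had the largest difference, -1.91 for UCS (95% interval -3.27 to -0.55, adjusted p = 0.894), although the highest UCS library, 176.4 CPM, was above Vehicle replicate 3, 115.9 CPM. Leaving out that Vehicle library gave -2.35 (adjusted p = 0.0953), and the difference was 0.24 within the high-Dbp libraries (adjusted p = 1) and -3.14 within the low-Dbp ones (adjusted p = 0.173). For UCPRP the Krt16 difference was -1.03 (95% interval -2.36 to 0.30, adjusted p = 0.595), and 0.85 within the high-Dbp libraries. No call thus stood behind a lower Krt16 in either treated group.

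Krt17 differed by -0.88 for UCS (95% interval -1.96 to 0.20) and -0.46 for UCPRP (95% interval -1.54 to 0.61), intervals that reach from a clear reduction to a small increase. Krt15 differed by 0.44 (95% interval -0.27 to 1.15) and 0.45 (95% interval -0.26 to 1.17). Krt5 was close to Vehicle in both groups, at 0 (95% interval -0.60 to 0.59) and 0.15 (95% interval -0.45 to 0.74). For Krt6a the differences were -0.16 (95% interval -0.67 to 0.36) and -0.23 (95% interval -0.74 to 0.29), and for Krt6b 0.02 (95% interval -0.52 to 0.57) and -0.21 (95% interval -0.75 to 0.34). All 3 Krt6a libraries of UCPRP were below the Vehicle libraries. The data thus leave room for differences of these sizes in Krt17 and Krt15, and bound those of Krt5, Krt6a and Krt6b to less than 1 log2 unit.

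UCPRP and UCS were also compared with each other. No member and no gene of the 16124 passed (0%), no member reached an unadjusted p under 0.05, and 393 genes did (2.44%). DESeq2 called 0. Krt14 (-0.04, 95% interval -0.65 to 0.57), Krt15 (0.02, -0.69 to 0.73) and Krt6a (-0.07, -0.59 to 0.44) had similar means in both groups. Krt16 (0.88, -0.45 to 2.21) and Krt17 (0.42, -0.66 to 1.49) had intervals too wide to show likeness or difference. Krt6b was lower in all UCPRP libraries than in all UCS libraries (-0.23, -0.77 to 0.31), as 10.6% of all genes tested did not overlap.

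Counted against all keratin transcripts, the make-up of the cornea changed more than the amount. Keratin genes held 4.68% to 6.92% of all counts in the Control libraries and 3.86% to 5.06% in the 9 injured ones. The 7 members made up 51.5% to 53.1% of keratin counts in Control, 59.0% to 64.8% in Vehicle, 56.4% to 62.0% in UCS and 58.9% to 60.1% in UCPRP. Shares add up to a whole, and Krt12 alone went from 37.9% ± 3.02 (SD, n = 3) of keratin counts in Control to 0.0291% ± 0.0185 in Vehicle, 0.0485% ± 0.0337 in UCS and 0.133% ± 0.209 in UCPRP.

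Within that whole, Krt5 took 26.8% ± 2.44 in Control and 14.6% ± 1.19 in Vehicle, 14.3% ± 0.696 in UCS and 16.0% ± 0.633 in UCPRP. Krt14 took 1.32% ± 0.487 in Control, 10.5% ± 2.55 in Vehicle, 6.84% ± 1.80 in UCS and 6.75% ± 0.505 in UCPRP. Krt15 took 5.04% ± 1.08, 11.3% ± 2.02, 15.1% ± 1.42 and 15.4% ± 0.930 in the same order of groups. The conjunctival keratins Krt13 (5.11% in Control, 20.3% in Vehicle, 21.2% in UCS and 20.5% in UCPRP) and Krt4 (2.06%, 12.9%, 13.3% and 13.8%) filled much of the rest. Krt16 and Krt17 stayed minor in every group, at means of at most 0.947% and 1.69%.

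**Figure D3:**
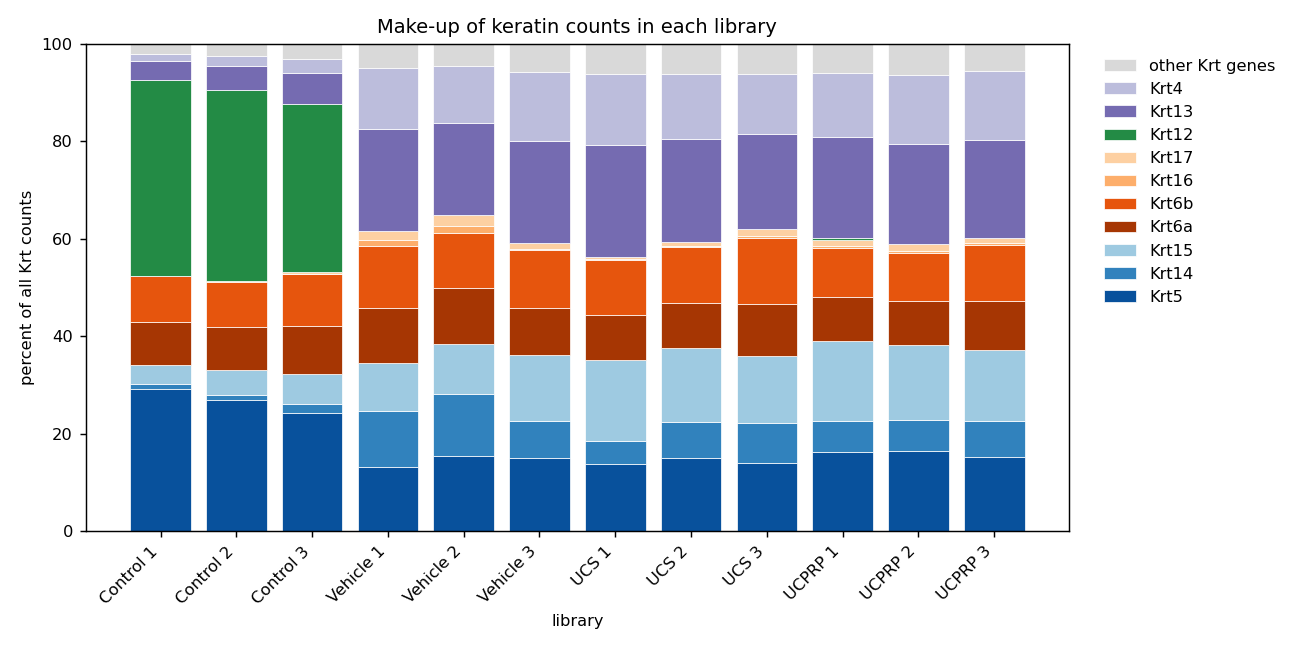
Share of all keratin counts, in percent, held by each of the 7 members, by Krt12, Krt13 and Krt4 and by all other keratin genes, as 1 stacked bar per library. Krt12 is 37.9% of keratin counts in Control and at most a thin line in the injured libraries, where Krt13, Krt4, Krt14 and Krt15 take larger parts.

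Ratios within a library do not depend on its total amount of epithelium as long as the mix of epithelia is the same. Shares of keratin counts differed, with Krt12 at 37.9% in Control and 0.0291% in Vehicle, and Krt4 at 2.06% and 12.9%. The part of the mix of epithelia in these ratios was not tested. Log2 Krt14 to Krt5 was -4.79, -4.72 and -3.69 in Control and -0.21, -0.31 and -0.96 in Vehicle. In UCS it was -1.52, -1.03 and -0.76, and in UCPRP -1.32, -1.36 and -1.06. The pair was thus far from equal in Control and closest to equal in Vehicle replicates 1 and 2, and no injured library overlapped with Control. Log2 Krt15 to Krt5 was -2.43 ± 0.45 (SD, n = 3) in Control, -0.38 ± 0.23 in Vehicle, 0.08 ± 0.16 in UCS and -0.05 ± 0.07 in UCPRP. Log2 Krt6b to Krt6a was 0.09 ± 0.03 in Control, 0.15 ± 0.19 in Vehicle, 0.34 ± 0.03 in UCS and 0.18 ± 0.02 in UCPRP. The part of the unknown division of shared reads in that narrow range was not tested. Log2 Krt17 to Krt16 was spread most, with 0.40, 0.78 and 2.21 in the Vehicle libraries.

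Summed by role, the basal keratins Krt5, Krt14 and Krt15 came to 19580 ± 7140 CPM in Control, 16500 ± 1560 in Vehicle, 16690 ± 1040 in UCS and 17400 ± 2830 in UCPRP (SD, n = 3). These sums overlapped between all groups. The Control mean rests on replicate 2, at 27790 CPM, and Control replicates 1 and 3 were at 16080 and 14860 CPM, below the Vehicle mean. Krt6a and Krt6b summed to 11050 ± 3580, 10400 ± 1730, 9981 ± 494 and 8946 ± 660 CPM in the same order. Krt16 and Krt17 summed to 154.2 ± 72.1, 1180 ± 470, 523.4 ± 233 and 755.9 ± 189 CPM, and no injured library was within the Control range. Log2 of the 4 stress keratins over the 3 basal ones was -0.90, -0.86 and -0.63 in Control and -0.35, -0.54 and -0.67 in Vehicle, with Vehicle replicate 3 inside the Control range.

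Genes around these keratins in the epithelium were read from lists of known function. Each list is described by its counts and its median in the comparison of Vehicle with Control, against 9.58% of all genes tested that rose, 6.92% that fell and a median of -0.0013. Basal cells are held to the basement membrane by hemidesmosomes, to which Krt5 and Krt14 filaments attach. Of 15 attachment genes 3 rose and 2 fell, with a median of 0. Lamb3, a laminin chain of the epithelial basement membrane, rose by 1.83 (SE 0.22, adjusted p = 0.000278). Col17a1, the transmembrane collagen of hemidesmosomes, went from 1036 ± 160 to 404.7 ± 132 CPM and fell by 1.36 (SE 0.23, adjusted p = 0.00196), and the laminin chain Lama5 fell by 0.68 (adjusted p = 0.0142). Of 14 desmosomal and cytoplasmic partners, which join keratin filaments from cell to cell, none rose and 7 fell, with a median of -0.59; the largest were Dsg1a (-4.45), Dsc3 (-1.46), Evpl (-1.09) and Pkp3 (-1.06).

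Of 23 transcription factors of basal and stressed epithelium 2 rose and 5 fell, with a median of -0.10. Myc, a growth regulator, rose by 1.15 and Cebpb, a factor of inflammation and differentiation, by 1.01, while Klf4 (-1.03) and Tfap2c (-1.06) fell. Trp63, the master regulator of stratified epithelia and of Krt5 and Krt14, had 152.7 ± 12.7 CPM in Control against 142.1 ± 41.1 in Vehicle (log2 -0.10, SE 0.17, adjusted p = 0.771), and it was named after its value was seen. Of 27 ligands and receptors known to induce stress keratins 10 rose and 2 fell, with a median of 0.13. Il1b, an inflammatory cytokine, went from 1.344 ± 0.686 to 72.63 ± 56.9 CPM and rose by 5.76 (SE 1.10, adjusted p = 0.00492), with Vehicle replicate 3 again the lowest of its group at 7.56 CPM. Fgf7, a stromal growth factor for epithelium, rose by 1.88, and Lif by 1.44. Osm, a cytokine of the same family as Lif, had 2 counts over the Control libraries and 272 over the Vehicle libraries, which is 138 times more with a 95% interval from 37.8 to 1140 that covers counting error only. Vehicle replicates 1 and 2 held most of it, at 6.61 and 6.59 CPM against 0.459 CPM in replicate 3.

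Of 25 genes of activated wound epithelium 15 rose and 3 fell, with a median of 1.79. The largest were the cornified-envelope gene Sprr3, with 217 counts in Vehicle and 0 in Control (at least 24.4-fold higher against 3 counts per library), S100a8 (6.72), which leukocytes also express, and the matrix proteases Mmp13 (5.53) and Mmp9 (4.83). Of 12 genes of the differentiated corneal epithelium 1 rose and 9 fell, with a median of -2.92. Lypd2 (-11.74), Slurp1 (-11.27) and Krt12 (-10.71, SE 1.71, adjusted p = 0.00142) were the largest, and Krt12 was at 13.44 ± 9.15 CPM in Vehicle. The other corneal gene named by the same rule, Cdsn, fell by 3.86.

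Among other keratins, 5 of 8 simple and conjunctival ones rose and none fell, with a median of 1.16. Krt4 went from 1197 ± 520 to 5912 ± 1280 CPM (log2 2.30, SE 0.33, adjusted p = 0.00079) and Krt13 from 2988 ± 1110 to 9275 ± 1760 CPM (1.63), and Krt7 (2.10), Krt19 (1.22) and Krt23 (1.11) rose as well, while Krt18 was at -0.11 (adjusted p = 0.765). Of 6 epidermal keratins 2 rose, Krt76 (2.55) and Krt10 (1.18), and 2 fell, Krt78 (-1.25) and Krt80 (-0.81), with a median of 0.54. Of 9 genes linked to limbal stem and progenitor cells 3 rose, among them Gpha2 (1.56) and Ifitm3 (1.14), and Abcg2 fell by 0.99, with a median of -0.01. None of 12 proliferation genes passed, with a median of 0.30; Mki67 had 95.29 ± 41.5 CPM in Control against 111.9 ± 53.7 in Vehicle.

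Against Control, the wound list had 7 rising and 3 falling in UCS and 8 and 3 in UCPRP, and the inducing signals 2 and 2 in each. Fewer of all genes tested passed there too, 10.9% in UCS and 10.4% in UCPRP against 16.5% in Vehicle. The simple and conjunctival list had 5 rising and none falling in both, and the corneal list 8 falling in both. A count past the threshold in one group and not in another is no test of the difference, and no gene of any list passed between UCS or UCPRP and Vehicle. The median of the wound list was -0.64 in UCS and -0.75 in UCPRP relative to Vehicle, against -0.0071 and 0.031 over all genes tested. Lamb3 (-0.73 and -0.69) and Il1b (-2.65 and -2.96) were lower than in Vehicle in the mean, neither of them past the test.

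**Figure D4:**
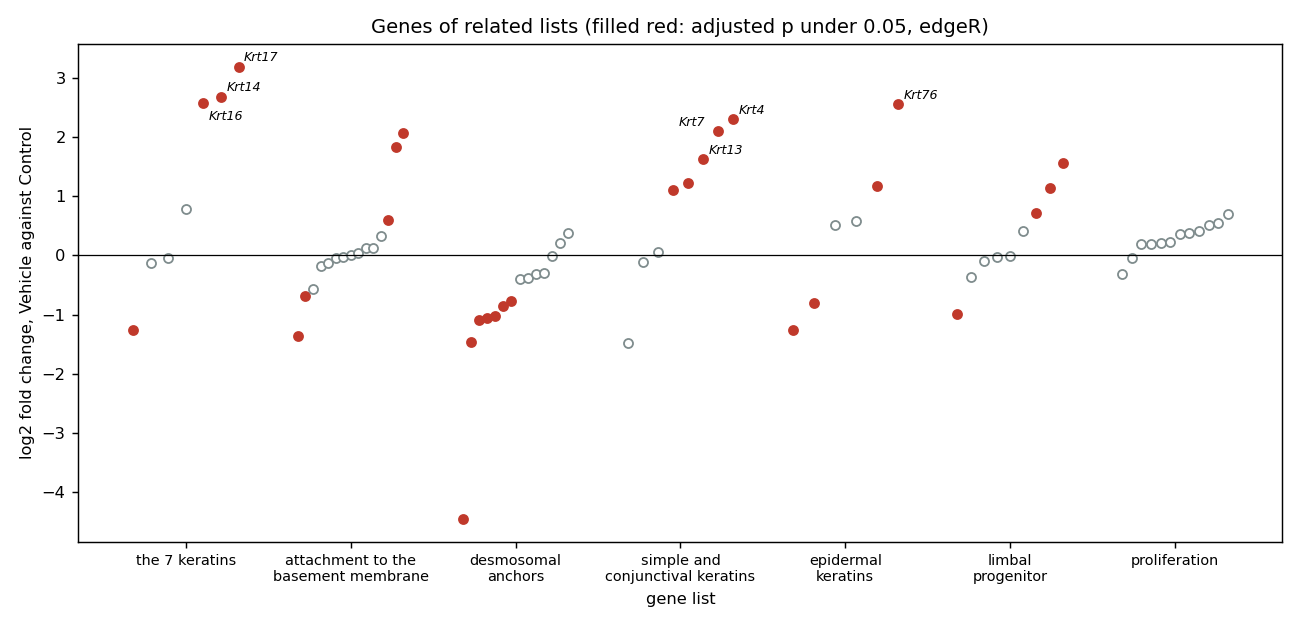
Log2 fold change, Vehicle relative to Control, of the 7 keratins and of each tested gene in 6 related lists, 1 point per gene in order of its value; filled red points passed an adjusted p of 0.05 (edgeR), and keratins past the test with a large change are named. The simple and conjunctival keratins that passed all lie above 0 and the desmosomal anchors that passed all lie below it, while no proliferation gene is filled.

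The genes whose pattern over the 12 libraries was closest to each keratin were found by the root mean square difference of centred log2 CPM, among 12873 genes outside the keratin family. Krt5, whose own spread on that scale was 0.56, was closest to Pkp3 (0.149), a desmosomal plaque protein, Erfe (0.151) and Id2 (0.154). Krt14 (spread 1.06) was closest to Glipr1 (0.208), Lyz2 (0.219), a lysozyme of macrophages and neutrophils, and Cxcr4 (0.224), a chemokine receptor. Krt15 (spread 0.63) was closest to Pir (0.146), Ripply3 (0.149) and Acsm1 (0.151). Krt17 (spread 1.44) was closest to Crabp2 (0.462), Ccl6 (0.477) and Cxcr4 (0.481), and Krt16 (spread 1.13) to Cd14 (0.461), Klk10 (0.481) and Ptafr (0.512). For Krt6a (spread 0.24) the closest were Psma5 (0.067), Psmd6 (0.071) and Plk2 (0.072), and for Krt6b (spread 0.24) Gramd3 (0.094), Rab11a (0.095) and Plk2 (0.096). Among the members themselves Krt6a and Krt6b were closest to each other (0.121), followed by Krt5 and Krt6a (0.457) and by Krt14 and Krt17 (0.468), and Krt5 and Krt17 were farthest apart (1.90). All these profiles share the same libraries and group differences, and the distances are a description.

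Marker sums of goblet cells with conjunctiva and of leukocytes were higher in the injured groups. Goblet cell and conjunctiva markers summed to 2800 to 6510 CPM in Control, 13900 to 20200 in Vehicle, 16700 to 20800 in UCS and 15200 to 19800 in UCPRP. The list includes Krt4, Krt7, Krt13 and Krt19, and these keratins held most of each sum. Krt13 alone was 1910 of 2800 CPM in Control replicate 1 and 10600 of 20200 CPM in Vehicle replicate 1. Of the list, 11 of 11 rose in Vehicle with a median of 3.48. The goblet cell mucin Muc5ac had 0.412 to 2.33 CPM in Control against 457 to 655 in Vehicle. Leukocyte markers summed to 182 to 279 CPM in Control, 761 to 1200 in Vehicle, 509 to 1060 in UCS and 628 to 642 in UCPRP, and 8 of 10 rose in Vehicle. Ptprc, the pan-leukocyte gene, measured 47.5, 40.4 and 23.9 CPM in Vehicle replicates 1 to 3, with the lowest in the library that was also lowest for Krt14, Krt16 and Krt17. The part of either cell type in the keratin differences was not tested.

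General epithelial markers, 14 genes, summed to 2640 to 4030 CPM in Control, 2160 to 2640 in Vehicle, 2350 to 2930 in UCS and 2050 to 2750 in UCPRP, with 1 rising and 4 falling in Vehicle. With the centred mean log2 CPM of these 14 genes as a covariate, Krt15 was 1.22 higher in Vehicle (adjusted p = 0.00883). Krt5, Krt14, Krt16 and Krt17 stayed past the threshold. The 14 genes themselves had a median log2 difference of -0.38 in Vehicle. A covariate that differs by group cannot separate epithelial content from injury. Eyelid skin markers, 9 genes, summed to 614 to 666 CPM in Control, 39.0 to 93.0 in Vehicle, 58.8 to 93.6 in UCS and 62.1 to 87.7 in UCPRP, and Dsg1a, which corneal epithelium also expresses, held 597 to 646 CPM of the Control sum. Of 6 tested, 2 rose in Vehicle, Krt10 (1.18) and Krtdap (2.75), and Dsg1a fell, with a median of 0.77. Krtdap was hardly detected, at 0.0518 to 0.154 CPM in Control, no more than the value of 3 counts, and 0.408 to 0.774 CPM in Vehicle. Krt10 was at 9.15 to 34.5 CPM and Krt1 at 3.45 to 10.3 CPM over all libraries, the cornified-envelope gene Lor at or below 1.03 CPM and Krt2 at or below 0.0599 CPM. Hair follicle markers summed to 23.8 to 36.3 CPM over all libraries. Of 4 tested, Tchh rose in Vehicle (0.98, 12.2, 8.69 and 8.99 CPM against 4.33 to 5.93 CPM in Control) and Krt75 fell (-1.68), 1 rose in each of UCS and UCPRP, and the hair keratins Krt71 and Krt73 were at 0 in Vehicle. Sebaceous markers summed to 169 to 280 CPM, and of 7 tested 2 rose in Vehicle, Cidea (1.76) and Soat1 (0.58), 2 in UCS and 1 in UCPRP. The 7 myoepithelial and smooth muscle markers summed to 857 to 1610 CPM, with none called in Vehicle. The part of skin, hair follicle or gland in the keratin differences was not tested. Marker genes called here were named after their values were seen.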

How the data were processed

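RNA of whole mouse corneas was sequenced in 12 libraries, 3 pools of 6 corneas for each of 4 groups, from libraries made with a stranded total RNA kit per the labels' protocols. HISAT and the build GRCm38 are named, without version, per the submitters' processing notes. The counting tool, annotation, read length and strand setting are unstated (not given in the sources used here). Estimated counts, called read counts per the file headers, were deposited per gene and library. Of them 64.9% were whole, and they were rounded to whole numbers before testing. Library totals of 18.55 M to 20.44 M gave 3 counts, the limit a count of 0 allows, the value of 0.147 to 0.162 CPM, which covers counting error only.

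Genes were kept with filterByExpr (minimum count 10), scaled with TMM (factors 0.825 to 1.067) and tested with the robust quasi-likelihood F test of edgeR 4.0.16 (R 4.3.3), 1 term per group over all libraries, with Benjamini-Hochberg adjustment over 16124 genes and calls at an adjusted p under 0.05. The script was checked on simulated counts. The SE is the absolute log2 fold change over the square root of F, and 95% intervals use 8 residual degrees of freedom. Libraries of a group varied with a common BCV (biological coefficient of variation) of 0.227. Alternatives used DESeq2 1.42.0, limma-voom (limma 3.58.1), other scalings, filters, covariates and left-out libraries. Where nothing says that pools came from separate experiments, p-values measure the spread between these pools.

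CPM per kb used the longest protein-coding transcript of GENCODE M21 (GRCm38), since the RefSeq table at hand gave gene spans only; coding sequences and coordinates come from the same annotation and were compared with Biopython 1.88 (Python 3.11.15). All 7 members, the 3 most alike genes of each, up to 4 called genes per list with the largest change in Vehicle (or the most abundant where none was called) and other keratins with a mean of at least 50 CPM are named by rule; 1 gene so named is not reported here. The members, lists and tests were chosen with earlier results of these data known.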

Additional observations from a re-analysis of the deposited data

How the results depend on the processing

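Of 735 recomputed member differences, 643 kept direction and side of the threshold, 38 lost a call, 6 gained one and 48 changed sign, none of these past the threshold. Of 105 counts of members called, 97 stayed within 1.5 times. The comparisons without Control had 0 members called in the main fit and in every alternative, so the counts that moved were all in comparisons with Control. All 32 recomputed group means of the stress to basal ratio and of summed keratin CPM moved by less than 1 SD of the group's libraries. Fitting only the compared groups left 1 member called for UCS and 2 for UCPRP against Control. Calls over all genes fell there too, to 1211 and 1185 from 1753 and 1671 in the main fit. Fits to the high-Dbp libraries, fewer in number and chosen after seeing the data, left 2 members called for UCS and 2 for UCPRP against Control. Over all genes these called 1027 and 1009. The other Dbp-split comparisons with Control had an arm of a single library. Leaving out 1 library gave 3 to 5 members called for Vehicle, 3 to 4 for UCS and 2 to 4 for UCPRP against Control. It gave 0 in all other comparisons. The lowest count against Control came without UCPRP replicate 2, where 1009 of all genes were called. Apart from the Dbp splits, Krt14 kept its call in all 15 other settings of its own row in each Control comparison (log2 2.46 to 2.84 in Vehicle, 1.86 to 2.26 in UCS and 1.82 to 2.17 in UCPRP), and so did Krt17 in Vehicle (2.77 to 3.49) and UCPRP (2.31 to 3.03). The Dbp splits, which have arms of a single library, did not keep all of these calls. Krt14 differed from Control by 2.61 in Vehicle and 1.39 in UCS within the low-Dbp libraries, without a call. Within the high-Dbp libraries Krt17 differed by 3.00 in Vehicle, also without a call. Sign changes were almost all in differences near 0. For UCS against Vehicle, Krt5 was 0 with RLE size factors, DESeq2 or no filter and 0.05 in low-Dbp libraries (-0.08 to 0.06 with 1 library left out), and Krt6b was -0.06 as a sum with Krt6a, -0.09 with the epithelial covariate, -0.04 with the clock covariate, -0.01 in high-Dbp and 0 in low-Dbp libraries (-0.13 to 0.16). For Vehicle against Control, Krt6a was 0.20 with the epithelial covariate and 0.17 in low-Dbp libraries (-0.28 to 0.17), and Krt6b was 0.27 and 0.13 there and 0.02 with the clock covariate (-0.22 to 0.24). For UCS against Control, Krt6b was 0.01 with limma-voom, 0.18 with the epithelial and 0 with the retina covariate, and 0.13 in low-Dbp libraries (-0.19 to 0.26), Krt6a ranged from -0.43 to 0.02 with 1 library left out, and Krt16 was -0.01 in low-Dbp libraries. For UCPRP against Control, Krt6b was 0.09 with the epithelial covariate. For UCPRP against UCS, Krt14 was 0.06 as a sum with Krt16 and Krt17, 0.01 with the epithelial and 0.02 with the retina covariate (-0.22 to 0.08), Krt15 was 0 with only these groups and -0.08 with the clock covariate (-0.10 to 0.16), and Krt6a was 0.07 and 0.05 with the epithelial and retina covariates. For UCPRP against Vehicle, Krt5 was -0.12 with the clock covariate, and in high-Dbp libraries Krt16 was 0.85 and Krt17 0.03; Krt16 for UCS against Vehicle was 0.24 there. The cause was not tested. Equal replicate numbers did not pair the libraries consistently. Correlations of their deviations were -0.66, -0.64 and -0.21 between Vehicle and Control, and in other comparisons of mixed sign, up to 0.56 (UCPRP and Vehicle replicate 1). A library correlated best with its own number in 11 of 36 cases. With a replicate block, 4 members were called for Vehicle, 3 for UCS and 3 for UCPRP against Control and 0 otherwise. Over all genes that fit called 2300, 1493 and 1402 against Control. Krt15 lost its call there in UCS (1.24, adjusted p = 0.0547) and UCPRP (1.26, adjusted p = 0.0545). Krt16 had the widest intervals, and its Vehicle libraries ran from 115.9 to 666.6 CPM. That spread limits what can be said of treatment for this gene.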
